A study of Homo sapiens with 16 samples.

Results

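A group of 10 genes for microtubule-binding and tubulin-regulating proteins, chosen by symbol, was followed by RNA sequencing in MDA-MB-231, a line of human breast cancer cells that lack hormone receptors and HER2 amplification. The group was STMN1, MAP4, MAP1B, MAPRE1, MAPRE3, TTC5, HDAC6, ATAT1, GAS2L3 and KATNA1. Of the 10, 9 stood in the table of 37864 genes, and all 9 had enough counts to be among the 17991 genes tested. ATAT1 was not analysed here. The data are 16 libraries, 4 for each of 4 groups: cells given afatinib and paclitaxel together (the combination), afatinib alone, paclitaxel alone, or the solvent DMSO alone. All groups were the same unmodified line, and the sources used here give no dose or duration for any group. The labels do not say whether the 4 libraries of a group came from separate cultures, so each p-value reflects only how far these samples scatter, and that scatter may be technical.

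Microtubules are polymers of α- and β-tubulin dimers that grow and shrink at their ends. Stathmin (STMN1) binds free dimers, MAP4 and MAP1B bind along the polymer, and the end-binding proteins EB1 (MAPRE1) and EB3 (MAPRE3) ride on growing plus ends. TTC5 recognises tubulin as it leaves the ribosome and starts the decay of tubulin mRNA when free tubulin is abundant, HDAC6 removes the acetyl group that ATAT1 puts on α-tubulin, KATNA1 is the severing subunit of katanin, and GAS2L3 links microtubules to actin filaments and acts in cytokinesis. Paclitaxel binds β-tubulin inside the polymer, stabilises it and stalls mitosis, while afatinib irreversibly blocks the kinases of the EGFR family.

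Library totals ran between 28.4M and 48.1M counts, and the 9 genes had 189 to 27800 counts per library. Replicates 1 and 2 of each group had labelled RNA concentrations of 346 to 1291 ng/µl and replicates 3 and 4 of 118 to 330 ng/µl. Each set holds 8 libraries, and 69.5% of tested genes differed between the sets. The set was therefore a term in each fit, and changes within each set are given beside the pooled ones (replicates 1 and 2 before replicates 3 and 4). Concentrations also differed between treatments inside a set: replicates 1 and 2 averaged 623 ng/µl in the combination, 1002 ng/µl with afatinib, 388 ng/µl with paclitaxel and 1171 ng/µl in DMSO. Fits with log2 concentration in place of the set, and on the authors' concentration-corrected log2 values, are among the other settings reported below. They moved some changes, and beyond them what part of a change goes with concentration was not tested. The mitochondrial share of counts, a sign of RNA quality, was above both DMSO libraries of its set in each treated library. In replicates 1 and 2 it was 3.48 and 2.94% in the combination, 2.76 and 2.87% with afatinib, 3.22 and 3.43% with paclitaxel and 2.38 and 2.26% in DMSO. In replicates 3 and 4 it was 7.78 and 9.71% in the combination, 7.23 and 7.05% with afatinib, 5.03 and 8.09% with paclitaxel and 4.09 and 4.72% in DMSO, and its part in the changes was not tested. The line's own markers were abundant (VIM 844 to 1213 CPM, CD44 850 to 2142 CPM) and ESR1 was at or under 0.49 CPM, while PGR had 3.80 to 6.44 CPM. The 3 blood markers summed to at most 0.26 CPM in any library and the 3 fibroblast markers to 12.2 to 27.6 CPM. The 3 endothelial markers summed to 1.56 to 2.17 CPM in the combination, 1.64 to 2.71 CPM with afatinib, 2.41 to 4.07 CPM with paclitaxel and 2.36 to 5.07 CPM in DMSO. The 6 luminal breast markers, mostly KRT8, summed to 519 to 581 CPM in the combination, 518 to 572 CPM with afatinib, 648 to 709 CPM with paclitaxel and 673 to 760 CPM in DMSO. The part of these markers in the changes below was not tested.

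Promoter sequences at annotated start sites are shown for the 2 genes with the largest rise and the 2 with the largest fall in the combination. Which start sites these cells use was not tested. They are RefSeq windows on GRCh38.p14 of 250 bases before to 50 after a start site, written 5′ to 3′ on the gene's strand: chr12:100593368-100593667 (plus) for GAS2L3, chrX:48801148-48801447 (plus) for HDAC6, chr5:72107225-72107524 (plus) for MAP1B and chr14:20305902-20306201 (minus) for TTC5. Capitals mark matches to 5 motifs searched on either strand: the CHR element TTTGAA of cell-cycle genes, the CCAAT box, the TATA box TATAAA, and the E2F sites TTTGGCGC and TTTCCCGC.
GAS2L3: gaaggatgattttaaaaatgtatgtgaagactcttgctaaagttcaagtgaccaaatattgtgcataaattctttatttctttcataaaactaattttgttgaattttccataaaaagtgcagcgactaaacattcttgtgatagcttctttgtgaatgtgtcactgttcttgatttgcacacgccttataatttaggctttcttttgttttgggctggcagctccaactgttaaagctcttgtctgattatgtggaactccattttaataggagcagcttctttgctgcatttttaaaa
HDAC6: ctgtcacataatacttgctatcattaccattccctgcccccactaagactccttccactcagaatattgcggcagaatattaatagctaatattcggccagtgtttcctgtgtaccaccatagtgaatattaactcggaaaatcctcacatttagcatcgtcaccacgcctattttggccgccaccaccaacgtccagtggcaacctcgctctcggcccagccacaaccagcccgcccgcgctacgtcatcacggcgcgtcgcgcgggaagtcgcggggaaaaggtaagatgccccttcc
MAP1B: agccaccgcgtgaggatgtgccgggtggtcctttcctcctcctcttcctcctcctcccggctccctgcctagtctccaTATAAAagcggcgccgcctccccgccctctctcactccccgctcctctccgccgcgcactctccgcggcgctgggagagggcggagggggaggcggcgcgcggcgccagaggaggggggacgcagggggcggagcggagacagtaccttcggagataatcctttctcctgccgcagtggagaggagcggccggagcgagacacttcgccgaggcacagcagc
TTC5: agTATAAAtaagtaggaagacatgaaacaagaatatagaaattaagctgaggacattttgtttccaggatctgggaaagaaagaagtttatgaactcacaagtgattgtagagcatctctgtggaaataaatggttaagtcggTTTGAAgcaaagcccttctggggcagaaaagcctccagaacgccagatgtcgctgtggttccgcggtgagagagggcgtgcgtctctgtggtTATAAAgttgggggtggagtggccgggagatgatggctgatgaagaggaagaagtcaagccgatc
The windows of GAS2L3 and HDAC6 held none of the 5 motifs, that of MAP1B held TATAAA at 1 place, and that of TTC5 held TATAAA at 2 places and the CHR element at 1. Counted from the start site, TATAAA began at −172 in MAP1B and at −248 and −15 in TTC5. Whether these matches act as TATA boxes was not tested. Among 35116 promoter windows of the same length, 11.5% held the TATA box, 15.2% the CHR element, 34.6% the CCAAT box, 0.652% TTTGGCGC and 1.63% TTTCCCGC. GC content was 33.3% for GAS2L3, 53% for HDAC6, 70% for MAP1B and 45.7% for TTC5, against a median of 58.7% over the table. The GAS2L3 window lies at its 1 RefSeq start, 19935 bases inside the longer GENCODE gene, so it is not the only possible start. The MAP1B start used lies 241 bases inside its GENCODE gene.

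Changes in the 9 genes ran in both directions and were mostly small, with GAS2L3 as the exception. Calls are genes with an adjusted p under 0.05 (Benjamini-Hochberg, all tested genes) in the quasi-likelihood test of edgeR. In the combination against DMSO 6 of the 9 genes were called, of which 4 rose (GAS2L3, HDAC6, KATNA1 and MAP4) and 2 fell (MAP1B and TTC5). Over all tested genes 38% were called there, 18.5% higher and 19.5% lower. With afatinib 3 of 9 were called (GAS2L3 and HDAC6 rose, MAP1B fell), against 19.1% of all tested genes (9% higher and 10.1% lower). With paclitaxel 6 of 9 were called (GAS2L3 and KATNA1 rose; STMN1, MAP1B, MAPRE3 and TTC5 fell), against 20.5% of all tested genes (8.65% higher and 11.9% lower). Median log2 changes of the 9 genes were 0.11 in the combination, 0.02 with afatinib and 0.03 with paclitaxel, and medians of all tested genes lay within 0.01 of 0 in each comparison. The 3 comparisons share the DMSO libraries. The genes were chosen with earlier results of these data known. Their shares called therefore do not test the group against all tested genes.

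**Figure D1:**
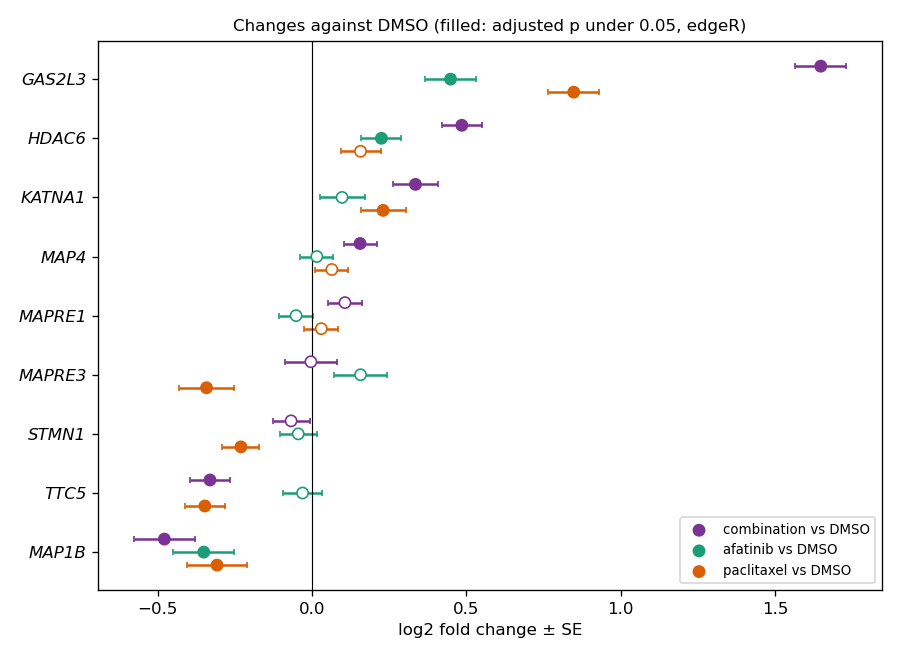
Log2 fold change against DMSO (x axis, ± SE) of the 9 genes (rows) in the combination, with afatinib and with paclitaxel, 4 libraries per group; filled points had an adjusted p under 0.05. GAS2L3 lies furthest right in each treatment (1.65, 0.45 and 0.85), and MAP1B lies left of 0 in each (−0.48, −0.35 and −0.31).

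Between treatments, 3 of 9 genes differed in the combination against paclitaxel (GAS2L3, HDAC6 and MAPRE3, all higher), beside 24.2% of all tested genes (12.6% higher and 11.6% lower). Against afatinib 5 of 9 differed in the combination (GAS2L3, HDAC6, KATNA1 and MAPRE1 higher, TTC5 lower), beside 27.4% of all tested genes (13.1% higher and 14.3% lower). Calls for afatinib against DMSO dropped to 1 without afatinib replicate 4. Those for the combination against afatinib dropped to 3 without combination replicate 3 or afatinib replicate 4, and those against paclitaxel increased to 5 without combination replicate 4.

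GAS2L3 (ENSG00000139354, chromosome 12, 100573683 to 100628286, plus strand, GRCh38) rose in every treatment, least with afatinib and most in the combination. Its level was 97.2, 105, 115 and 105 CPM in the combination libraries (replicates 1 to 4), 38.4, 48.7, 47.4 and 49.2 CPM with afatinib, 56.0, 68.3, 61.6 and 55.3 CPM with paclitaxel and 31.8, 28.6, 37.2 and 37.4 CPM in DMSO. CPM are library-size-scaled counts, adjusted by the TMM method of edgeR. No library of one group reached into the range of another, in any of the 5 pairs compared. Among all tested genes 8.31% were higher in every combination library than in every DMSO library, 4.64% with afatinib and 4.5% with paclitaxel, and 5.7% were higher in all combination than in all paclitaxel libraries and 5.64% than in all afatinib libraries. The means were 105 ± 7.17 CPM in the combination, 45.9 ± 5.09 CPM with afatinib, 60.3 ± 6.04 CPM with paclitaxel and 33.7 ± 4.29 CPM in DMSO (SD, n = 4 each). In bulk RNA, more cells in a state that uses a gene and more of its RNA per cell cannot be told apart.

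The log2 change of GAS2L3 in the combination against DMSO was 1.65 ± 0.08 (SE; a 3.14-fold rise; edgeR, adjusted p = 5.73e-13), with 1.75 and 1.56 within the concentration sets. Only 0.467% of tested genes had a larger log2 change there. With afatinib the change was 0.45 ± 0.08 (adjusted p = 0.000494; 0.54 and 0.37 within the sets), and with paclitaxel it was 0.85 ± 0.08 (adjusted p = 1.06e-07; 1.05 and 0.65). The combination also exceeded each drug alone, by 0.80 ± 0.08 over paclitaxel (adjusted p = 2.39e-07; 0.70 and 0.91) and by 1.20 ± 0.08 over afatinib (adjusted p = 1.8e-10; 1.21 and 1.19). These 3 differences in the combination kept their calls in each of the 16 fits without 1 library and in each of 9 other settings. The changes with afatinib and with paclitaxel kept theirs except on the authors' concentration-corrected log2 table, where they were 0.32 (adjusted p = 0.222) and 0.48 (adjusted p = 0.0541). A pseudogene inside the gene on its strand, AC010200.1, had 1 to 39 counts per library.

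**Figure D2:**
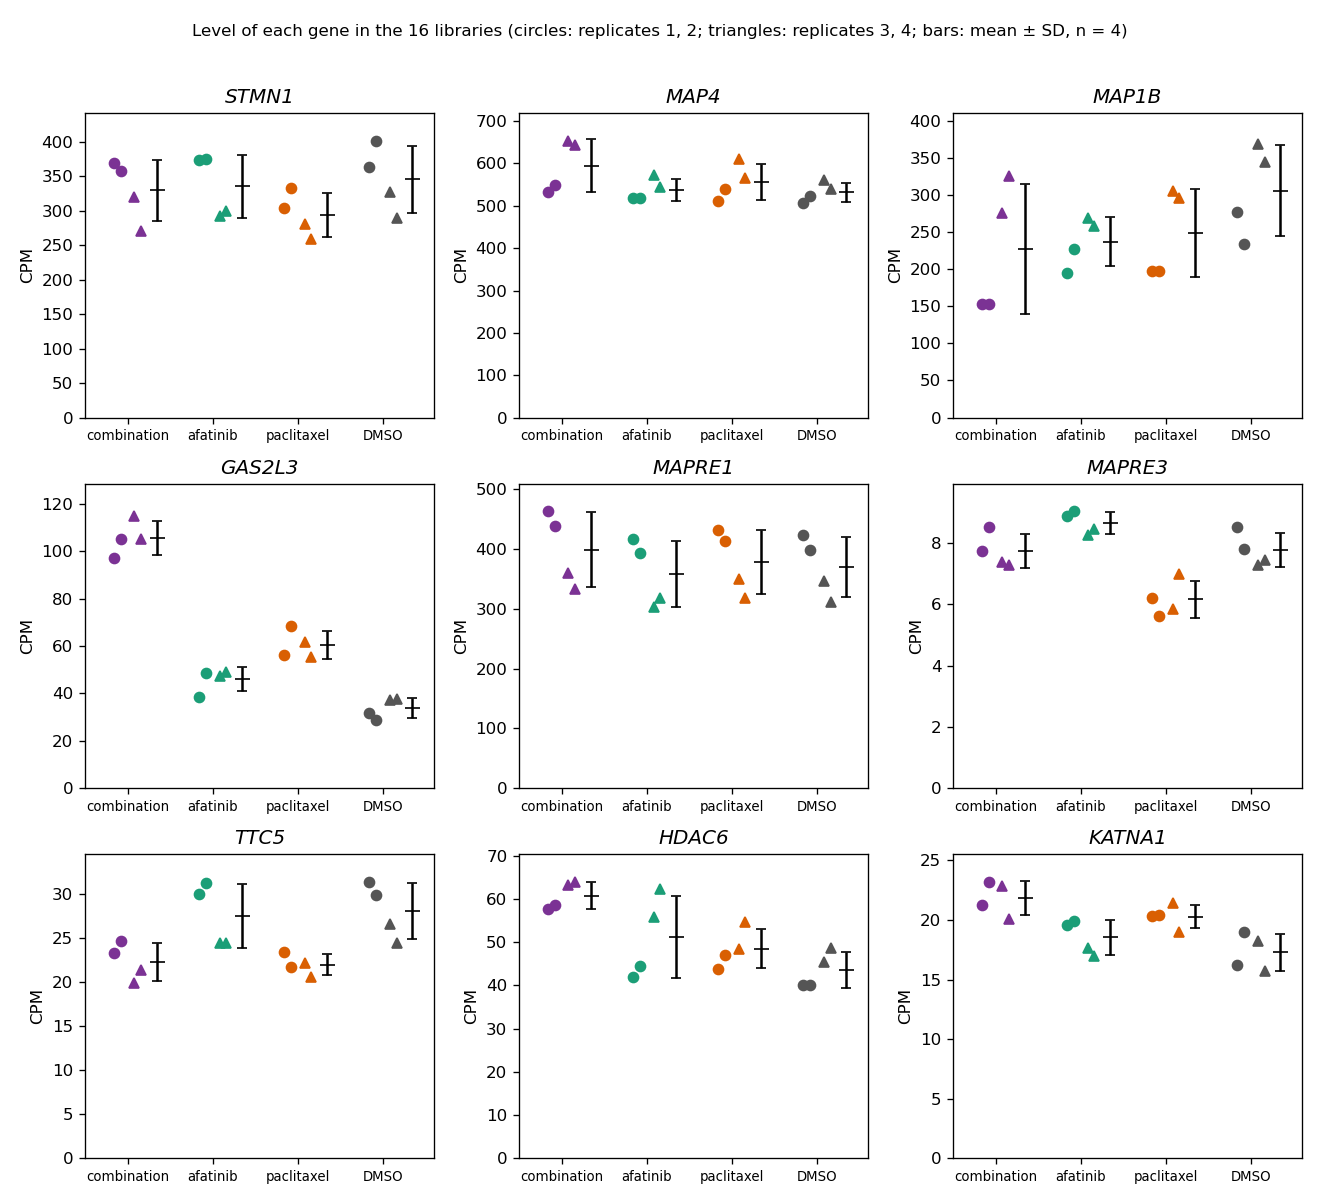
CPM (y axis, from 0) of each of the 9 genes in the 16 libraries, by group (x axis); circles are replicates 1 and 2, triangles replicates 3 and 4, and bars mean ± SD (n = 4). The combination libraries of GAS2L3 (97.2 to 115 CPM) stand clear of the DMSO libraries (28.6 to 37.4 CPM), while the sets separate MAP1B, MAP4, MAPRE1, STMN1 and HDAC6 within each group.

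The 3 genes whose profiles most resembled that of GAS2L3, by Pearson's r over the 16 libraries after subtracting each set's mean log2 CPM, were NAV2 (0.995), DLGAP5 (0.988) and BORA (0.988). These values describe libraries that share treatments and depth. NAV2 rose by 1.35 ± 0.08 in the combination against DMSO (edgeR, adjusted p = 1.1e-12), DLGAP5 by 0.91 ± 0.06 (2.61e-11) and BORA by 1.30 ± 0.08 (6.3e-12). All 3 were highest in the combination libraries, while afatinib replicate 1 of BORA lay below DMSO replicate 3 and the afatinib change of DLGAP5 (0.17 ± 0.06) was not called (adjusted p = 0.0515). Among the 9 genes themselves r was 0.86 between GAS2L3 and HDAC6, 0.81 between GAS2L3 and KATNA1 and −0.79 between GAS2L3 and TTC5.

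**Figure D3:**
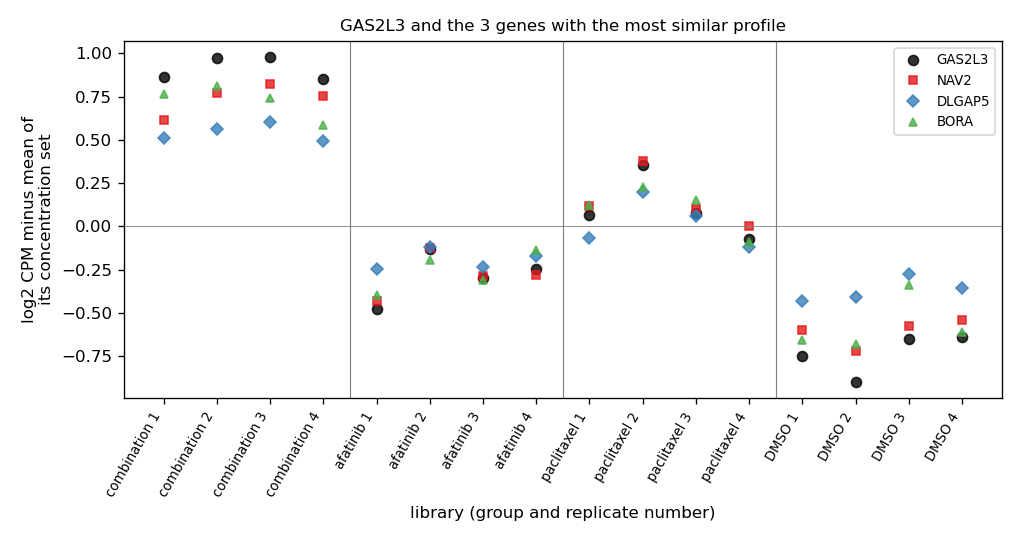
Log2 CPM minus the mean of the library's concentration set (y axis) for GAS2L3, NAV2, DLGAP5 and BORA in each of the 16 libraries (x axis). Points of all 4 genes lie above 0 in the 4 combination libraries and below 0 in the 4 DMSO libraries; r with GAS2L3 was 0.995, 0.988 and 0.988.

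Of the end-binding genes among the members, MAPRE3 was called lower with paclitaxel, as were STMN1, MAP1B and TTC5. MAPRE1 was not called against DMSO in any treatment. MAPRE3 (ENSG00000084764, chromosome 2, 26970612 to 27027196, plus strand) is the scarcer of the pair. It stood at 7.76, 8.54, 7.38 and 7.29 CPM in the combination, 8.88, 9.04, 8.27 and 8.46 CPM with afatinib, 6.21, 5.62, 5.86 and 6.998 CPM with paclitaxel and 8.53, 7.81, 7.30 and 7.44 CPM in DMSO. Every paclitaxel library was below every library of the other 3 groups; 5.21% of tested genes were lower in all paclitaxel libraries than in all DMSO libraries. MAPRE3 fell with paclitaxel by 0.34 ± 0.09 on the log2 scale (edgeR, adjusted p = 0.00625; −0.46 and −0.20 within the sets). It was higher by 0.34 ± 0.09 in the combination than with paclitaxel (adjusted p = 0.00597; 0.46 and 0.20), and in the combination against DMSO its change was −0.00378 ± 0.09 (adjusted p = 0.98; 95% interval −0.18 to 0.17). Both calls were lost without the set term (adjusted p = 0.0637 and 0.0593) and in replicates 3 and 4 alone (0.399 and 0.363), and the paclitaxel call also on the authors' log2 table (0.0876). With afatinib the change was 0.16 ± 0.08 (adjusted p = 0.208).

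MAPRE1 (ENSG00000101367, chromosome 20, 32819893 to 32850405, plus strand) encodes EB1, which recruits many other plus-end proteins. It had 464, 439, 360.4 and 334 CPM in the combination, 417, 393, 303 and 318 CPM with afatinib, 432, 413, 349 and 318 CPM with paclitaxel and 424, 398, 346 and 312 CPM in DMSO. Pooled ranges of the groups overlapped throughout, and replicates 3 and 4 lay below replicates 1 and 2 in each group (−0.36 ± 0.04 between the sets). Within each set both combination libraries were above both afatinib libraries. In replicates 1 and 2 they were also above the paclitaxel and DMSO libraries. These patterns were not counted over all tested genes. MAPRE1 was higher in the combination than with afatinib by 0.16 ± 0.05 (edgeR, adjusted p = 0.0327; 0.15 and 0.17 within the sets). That call was lost without combination replicate 1 (adjusted p = 0.0841) or 3 (0.0974) or afatinib replicate 2 (0.0669), 3 (0.109) or 4 (0.0558), and in 5 of 9 other settings. Against DMSO its changes were 0.11 ± 0.05 in the combination (adjusted p = 0.132; 95% interval −0.01 to 0.22), −0.05 ± 0.05 with afatinib and 0.03 ± 0.05 with paclitaxel. The first of these was called without DMSO replicate 3 (adjusted p = 0.0417), and with log2 concentration in place of the set both the combination (0.28, adjusted p = 0.00554) and paclitaxel (0.20, adjusted p = 0.0474) were called. A processed copy, MAPRE1P1, held 21 to 68 counts per library.

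Per kilobase, MAPRE1 made up 94.3 ± 0.357% of the transcripts of the 3 end-binding genes in the combination, 93.5 ± 0.217% with afatinib, 94.8 ± 0.527% with paclitaxel and 94.4 ± 0.14% in DMSO (SD, n = 4). MAPRE3 made up 1.40 ± 0.15% in the combination, 1.74 ± 0.199% with afatinib, 1.20 ± 0.267% with paclitaxel and 1.52 ± 0.136% in DMSO, and MAPRE2 made up the rest. EB1 was thus the main end-binding transcript in each group.

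The genes of the lattice-binding proteins moved apart: MAP4 rose slightly in the combination and MAP1B fell in all treatments. MAP1B (ENSG00000131711, chromosome 5, 72107234 to 72209570, plus strand), best known from growing axons, had 153, 154, 276 and 326 CPM in the combination, 195, 227, 269 and 258 CPM with afatinib, 198, 198, 305 and 296 CPM with paclitaxel and 277, 234, 369 and 344 CPM in DMSO. Within each concentration set the libraries of every treatment were below both DMSO libraries, although pooled ranges overlapped. These gaps compare 2 libraries with 2, and their share over all tested genes was not counted. MAP1B fell by 0.48 ± 0.10 in the combination (log2; edgeR, adjusted p = 0.000665), with −0.73 in replicates 1 and 2 and −0.24 in replicates 3 and 4. It fell by 0.35 ± 0.10 with afatinib (adjusted p = 0.0166; −0.27 and −0.44 within the sets) and by 0.31 ± 0.10 with paclitaxel (adjusted p = 0.0314; −0.36 and −0.24). The combination call was lost without the set term (adjusted p = 0.311) and in replicates 3 and 4 alone (0.105).

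The single-drug calls of MAP1B lay near the threshold, and leaving out 1 library ended them in several fits. Over the 16 such fits the change stayed below 0, at −0.45 to −0.28 with afatinib and −0.35 to −0.24 with paclitaxel. With afatinib, adjusted p was 0.0633 without afatinib replicate 3, 0.0651 without afatinib replicate 4 and 0.0671 without DMSO replicate 1, and the call was also lost without the set term (0.631), in replicates 1 and 2 alone (0.0763) and on the authors' log2 table (0.149). With paclitaxel the call ended without paclitaxel replicate 1 (0.0639), 2 (0.0769), 3 (0.0566) or 4 (0.074), without DMSO replicate 1 (0.114) or 3 (0.0818), and with the replicate number as a block (0.0762). It was also lost there without the set term (0.719), in replicates 3 and 4 alone (0.182) and on the authors' log2 table (0.0716). The combination differed from afatinib by −0.13 ± 0.10 (adjusted p = 0.377), with −0.47 in replicates 1 and 2 and 0.20 in replicates 3 and 4, so the sets pointed in opposite directions. From paclitaxel it differed by −0.17 ± 0.10 (edgeR, adjusted p = 0.228), with −0.37 in replicates 1 and 2 and 0.000269 in replicates 3 and 4. In replicates 1 and 2 alone both differences were called (adjusted p = 0.00215 from afatinib and 0.0143 from paclitaxel). Without combination replicate 4 both were called too (−0.25, adjusted p = 0.0305 from afatinib and −0.29, adjusted p = 0.013 from paclitaxel).

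MAP4 (ENSG00000047849, chromosome 3, 47850690 to 48089272, minus strand), the main microtubule-associated protein outside neurons, had 533, 548, 654 and 645 CPM in the combination, 517, 519, 573 and 544 CPM with afatinib, 512, 539, 611 and 566 CPM with paclitaxel and 507, 523, 559.9 and 539 CPM in DMSO. Its combination libraries lay above the DMSO libraries of the same set, a pattern not counted over all tested genes. The gap was wider in replicates 3 and 4. The rise in the combination was 0.16 ± 0.05 (edgeR, adjusted p = 0.0236), with 0.07 and 0.24 within the sets. It was lost without combination replicate 3 (adjusted p = 0.0852) or 4 (0.0559) or DMSO replicate 4 (0.0787), and in 6 of 9 other settings, among them the unfiltered table (0.103) and replicates 1 and 2 alone (0.394). With afatinib the change was 0.02 ± 0.05 (adjusted p = 0.879; 95% interval −0.10 to 0.13) and with paclitaxel 0.06 ± 0.05 (adjusted p = 0.446; −0.05 to 0.17). The combination minus afatinib was 0.14 ± 0.05 (adjusted p = 0.0529; 0.05 and 0.22 within the sets), which was called with DESeq2 (0.00724), with RLE factors (0.0354), with the replicate number as a block (0.0348) and without combination replicate 1 (0.0347) or 2 (0.0468) or DMSO replicate 1 (0.049), 2 (0.0427) or 3 (0.0375). Per kilobase, MAP1B stood at 0.44 ± 0.13 of MAP4 in the combination, 0.52 ± 0.05 with afatinib, 0.52 ± 0.09 with paclitaxel and 0.68 ± 0.11 in DMSO (SD, n = 4).

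**Figure D4:**
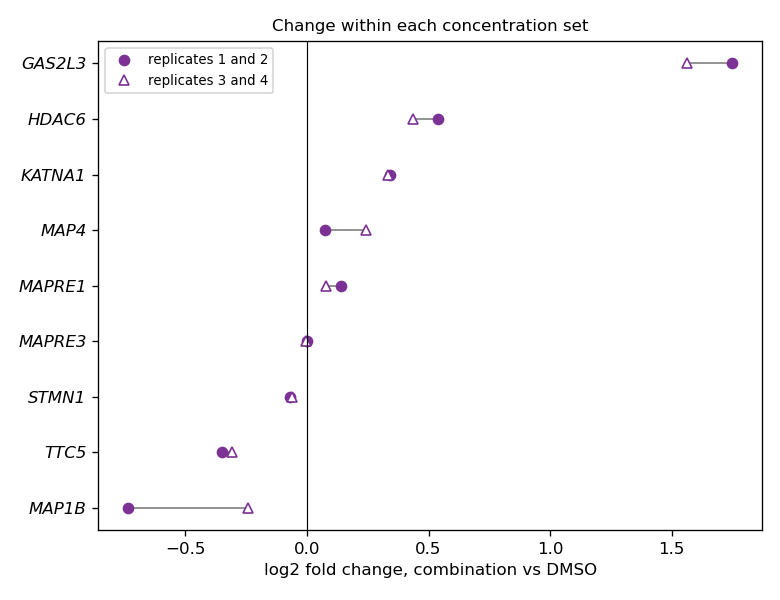
Log2 fold change in the combination against DMSO (x axis) within replicates 1 and 2 (filled circles) and within replicates 3 and 4 (open triangles) for the 9 genes (rows); a line joins both. Among the 6 called genes the gap between the sets is widest for MAP1B (−0.73 and −0.24) and narrowest for KATNA1 (0.34 in each).

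Of the genes that set the supply of tubulin, TTC5 fell wherever paclitaxel was present and STMN1 fell with paclitaxel alone. TTC5 (ENSG00000136319, chromosome 14, 20256558 to 20305994, minus strand) had 23.3, 24.7, 19.9 and 21.3 CPM in the combination, 30.1, 31.2, 24.4 and 24.5 CPM with afatinib, 23.5, 21.8, 22.2 and 20.6 CPM with paclitaxel and 31.4, 29.9, 26.6 and 24.5 CPM in DMSO. Each paclitaxel library was below each DMSO library, as for 5.21% of tested genes. The combination overlapped DMSO by 1 library pooled but not within a set, a pattern not counted over all tested genes. TTC5 fell by 0.33 ± 0.06 in the combination (log2; edgeR, adjusted p = 0.000173; −0.35 and −0.31 within the sets) and by 0.35 ± 0.06 with paclitaxel (adjusted p = 0.000292; −0.43 and −0.25). With afatinib its change was −0.03 ± 0.06 (adjusted p = 0.785; 95% interval −0.16 to 0.10). The combination was lower than afatinib by −0.30 ± 0.06 (adjusted p = 0.000813; −0.36 and −0.24) and differed from paclitaxel by 0.02 ± 0.06 (adjusted p = 0.884; 95% interval −0.12 to 0.15). No single library changed these calls, while all 3 were lost without the set term (combination 0.0548, paclitaxel 0.0984, combination against afatinib 0.12) and on the authors' log2 table (0.138, 0.172 and 0.103). The paclitaxel call (0.158) and that against afatinib (0.121) were also lost in replicates 3 and 4 alone. A long noncoding gene on the same strand, AL356019.2, overlaps TTC5 and had 6 to 92 counts per library.

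STMN1 (ENSG00000117632, chromosome 1, 25884181 to 25906991, minus strand) had 369, 357, 319.5 and 271 CPM in the combination, 373, 375, 292 and 299.8 CPM with afatinib, 303, 332, 280.2 and 258 CPM with paclitaxel and 363, 401, 327 and 289 CPM in DMSO. Within each set both paclitaxel libraries were below both DMSO libraries, a pattern not counted over all tested genes. STMN1 fell by 0.23 ± 0.06 with paclitaxel (log2; edgeR, adjusted p = 0.00704; −0.26 and −0.19 within the sets), and each leave-out kept this call. It was lost without the set term (adjusted p = 0.489), with log2 concentration in its place (−0.08, adjusted p = 0.393), in replicates 3 and 4 alone (0.317) and on the authors' log2 table (−0.06, adjusted p = 0.661). In the combination the change was −0.07 ± 0.06 (adjusted p = 0.401; 95% interval −0.19 to 0.06) and with afatinib −0.04 ± 0.06 (adjusted p = 0.656). The combination minus paclitaxel was 0.16 ± 0.06 (adjusted p = 0.0501), just short of the threshold. It was called with DESeq2 (0.0358), on the unfiltered table (0.0367), with the replicate number as a block (0.0199) and without any 1 of combination replicate 4 (0.0147), afatinib replicate 1 (0.0498), paclitaxel replicate 3 (0.0352) or DMSO replicate 1 (0.0479), 2 (0.0445), 3 (0.0352) or 4 (0.0428).

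HDAC6 (ENSG00000094631, chromosome X, 48801377 to 48824982, plus strand), the cytoplasmic α-tubulin deacetylase, rose in the combination by more than with either drug. It had 57.6, 58.5, 63.1 and 63.8 CPM in the combination, 42.0, 44.6, 55.8 and 62.3 CPM with afatinib, 43.9, 47.0, 48.5 and 54.6 CPM with paclitaxel and 40.1, 40.0, 45.4 and 48.6 CPM in DMSO. All combination libraries were above all paclitaxel and all DMSO libraries, whereas afatinib replicate 4 lay inside the combination range. Over all tested genes 5.7% were higher in all combination than in all paclitaxel libraries, and 8.31% than in all DMSO libraries. The rise in the combination was 0.49 ± 0.06 (log2, 1.4-fold; edgeR, adjusted p = 1.36e-06; 0.54 and 0.44 within the sets), called in all leave-outs and all 9 other settings. Over paclitaxel the combination was higher by 0.33 ± 0.06 (adjusted p = 0.000501; 0.35 and 0.30) and over afatinib by 0.26 ± 0.06 (adjusted p = 0.00319; 0.42 and 0.11). Both of these were lost without the set term (0.155 and 0.278) and in replicates 3 and 4 alone (0.0636 and 0.473), and the difference from afatinib on the authors' log2 table (0.09).

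With afatinib alone HDAC6 rose by 0.22 ± 0.06 (edgeR, adjusted p = 0.0157; 0.12 and 0.33 within the sets). That call was lost without afatinib replicate 4 (adjusted p = 0.105), in either set alone (0.343 and 0.0751), without the set term (0.44), with log2 concentration (0.143) and on the authors' log2 table (0.203). With paclitaxel the change of HDAC6 was 0.16 ± 0.06 (adjusted p = 0.0896), which was called with the replicate number as a block (0.15, adjusted p = 0.0492) and without paclitaxel replicate 3 (0.0461). On the authors' log2 table it was −0.04.

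KATNA1 (ENSG00000186625, chromosome 6, 149594873 to 149648972, minus strand) rose in the combination and, by a smaller margin, with paclitaxel. It had 21.3, 23.1, 22.9 and 20.1 CPM in the combination, 19.6, 19.9, 17.7 and 17.0 CPM with afatinib, 20.4, 20.4, 21.4 and 18.99 CPM with paclitaxel and 16.2, 18.97, 18.3 and 15.8 CPM in DMSO. Combination libraries were all above those of afatinib and DMSO, and paclitaxel libraries cleared DMSO by the narrow gap between 18.99 and 18.97 CPM. Over all tested genes 5.64% were higher in all combination than in all afatinib libraries, and 8.31% than in all DMSO libraries. For paclitaxel over DMSO the share was 4.5%. The log2 change was 0.34 ± 0.07 in the combination (edgeR, adjusted p = 0.000616; 0.34 in each set), a call lost only in replicates 3 and 4 alone (0.0535) among the leave-outs and settings run. With paclitaxel it was 0.23 ± 0.07 (adjusted p = 0.0254; 0.22 and 0.25), lost without paclitaxel replicate 3 (0.111) or DMSO replicate 1 (0.0953) or 4 (0.0895), and in 5 of 9 other settings. Over afatinib the combination was higher by 0.24 ± 0.07 (adjusted p = 0.0149; 0.16 and 0.32), lost without combination replicate 3 (0.0708) or afatinib replicate 4 (0.0633), and in 4 of 9 other settings. With afatinib the change was 0.10 ± 0.07 (adjusted p = 0.386; 95% interval −0.05 to 0.25). RPS18P9, on the opposite strand inside KATNA1, had 36 to 78 counts; as no strand setting is stated, reads of overlapping genes cannot be told apart for any gene here.

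Compared per kilobase of the exon length in the table, levels in DMSO ran from MAPRE1 (141 ± 19.2 CPM per kb) through STMN1 (55.1 ± 7.67), MAP4 (35.7 ± 1.52), MAP1B (24.2 ± 4.88), KATNA1 (7.49 ± 0.677), GAS2L3 (4.96 ± 0.63), HDAC6 (4.18 ± 0.405) and TTC5 (2.89 ± 0.325) to MAPRE3 (2.25 ± 0.159; SD, n = 4). Only GAS2L3 and HDAC6 overlapped among neighbours in this order. In the combination GAS2L3 had 15.5 ± 1.05 CPM per kb and KATNA1 9.46 ± 0.62 CPM per kb, so their order per kilobase was the reverse of that in DMSO. The ranking depends on the lengths used: 2623 bases for MAPRE1 (1 annotated transcript), 6261 for STMN1 (9) and 14896 for MAP4 (16). Unscaled DMSO means were 532 CPM for MAP4, 370 CPM for MAPRE1 and 345 CPM for STMN1. Without scaling, GAS2L3 was above KATNA1 in DMSO too (33.7 and 17.3 CPM). Which transcripts these cells use was not tested.

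Whether the combination change differed from the sum of the separate log2 changes was tested as an interaction, the combination change minus both single-drug changes. Over all tested genes 0.884% were called, and of the 9 genes 0 were called by edgeR, by DESeq2 or by limma on the authors' log2 table, with 2 (GAS2L3 and STMN1) at an unadjusted p under 0.05 in edgeR. The estimate for GAS2L3 was 0.35 ± 0.12 (adjusted p = 0.164; 95% interval 0.11 to 0.59), with 0.16 and 0.54 within the sets. It was called without paclitaxel replicate 2 (0.45, adjusted p = 0.0243) and on the unfiltered table (0.38, adjusted p = 0.00774). For STMN1 it was 0.21 ± 0.08 (adjusted p = 0.29; 95% interval 0.03 to 0.38). All 9 estimates were above 0, as were 52.5% over all tested genes, and they come from the same 16 libraries. For a gene that fell, an estimate above 0 means a smaller fall than the sum. MAP1B changed by −0.48 in the combination, −0.35 with afatinib and −0.31 with paclitaxel (interaction 0.18). STMN1 changed by −0.07 in the combination, −0.04 with afatinib and −0.23 with paclitaxel.

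Other microtubule genes were read from a list of 69, of which 68 were in the table (SVBP and MATCAP1 under older names) and 67 were tested. In the combination against DMSO 18 rose and 14 fell, 47.8% called beside 38% of all tested genes, with a median of 0.05. With afatinib 11 rose and 9 fell (29.9%, beside 19.1% of all tested genes), and with paclitaxel 5 rose and 5 fell (14.9%, beside 20.5%). Of the plus-end binders 8 of 12 were higher in the combination and 0 lower, with a median of 0.27; the shares over all tested genes were 18.5% higher and 19.5% lower, and differences between roles were not tested. KIF18B, a kinesin that limits microtubule growth at plus ends, rose by 0.88 ± 0.07 (edgeR, adjusted p = 1.37e-10), CLIP2, a linker protein, by 0.63 ± 0.06 (4.05e-09), and CLASP1, which stabilises ends, by 0.41 ± 0.05 (4.49e-07). KIF18B averaged 258 ± 12.8 CPM in the combination, 164 ± 16.7 CPM with afatinib, 169.6 ± 7.94 CPM with paclitaxel and 141 ± 15.1 CPM in DMSO (SD, n = 4 each). CLIP2 averaged 28.4 ± 1.98 CPM in the combination, 26.4 ± 0.992 CPM with afatinib, 18.5 ± 0.85 CPM with paclitaxel and 18.3 ± 0.528 CPM in DMSO.

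Severing genes other than KATNA1 were lower in the combination for 4 of 7 and higher for 0, with a median of −0.32. Over all tested genes 19.5% were lower and 18.5% higher, and differences between roles were not tested. KATNAL1, a katanin-like severing enzyme, fell by 0.73 ± 0.07 (edgeR, adjusted p = 8.35e-09). FIGNL1, a fidgetin-like relative of the severing enzymes, fell by 0.44 ± 0.06 (1.49e-06). KATNAL1 averaged 34.4 ± 0.711 CPM in the combination, 50.8 ± 3.82 CPM with afatinib, 40.9 ± 2.65 CPM with paclitaxel and 57.2 ± 8.43 CPM in DMSO (SD, n = 4 each).

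Among lattice binders 4 of 16 rose and 2 fell in the combination, 37.5% called beside 38% of all tested genes, including MAP1A, a relative of MAP1B, at 1.17 ± 0.10 (edgeR, adjusted p = 2.3e-09) and the doublecortin-like kinase DCLK1 at −0.76 ± 0.09 (1.88e-07). MAP1LC3B, an LC3 gene, rose by 0.31 ± 0.06 (0.000351). MAP1A thus rose in the combination where MAP1B fell. MAP1A averaged 8.68 ± 2.53 CPM in the combination, 7.60 ± 0.577 CPM with afatinib, 4.45 ± 0.932 CPM with paclitaxel and 3.82 ± 0.793 CPM in DMSO (SD, n = 4 each). For DCLK1 the averages were 17.4 ± 1.90 CPM in the combination, 19.7 ± 3.43 CPM with afatinib, 25.2 ± 1.87 CPM with paclitaxel and 29.6 ± 3.76 CPM in DMSO. SCAPER, which acts with TTC5 in tubulin mRNA decay, rose by 0.37 ± 0.07 (8.71e-05), while the CCR4-NOT subunits CNOT1 (−0.02 ± 0.06) and CNOT11 (−0.09 ± 0.06) did not pass. STMN3, the only other stathmin gene tested from the list, fell by 0.58 ± 0.09 (2.57e-05). Its averages were 26.3 ± 5.31 CPM in the combination, 29.7 ± 6.12 CPM with afatinib, 36.5 ± 8.53 CPM with paclitaxel and 39.6 ± 10.1 CPM in DMSO. Genes of tubulin tyrosination fell in 3 of 5, beside 19.5% lower over all tested genes. They were the detyrosinating peptidases VASH1 (−0.80 ± 0.13, 2.4e-05) and MATCAP1 (−0.56 ± 0.09, 3.57e-05) and the ligase TTL (−0.19 ± 0.06, 0.0186). TTL lost its call in 5 of 9 other settings and without combination replicate 4 (adjusted p = 0.0714) or DMSO replicate 2 (0.0588) or 3 (0.0967). Folding cofactors split into 1 higher and 2 lower of 7, beside 18.5% higher and 19.5% lower over all tested genes. TBCC stood at −0.62 ± 0.07 (2.05e-07), TBCE at 0.18 ± 0.05 (0.00716) and TBCB at −0.19 ± 0.06 (0.00964). The sign of TBCB turned under log2 concentration in place of the set (0.0707) and on the authors' log2 table (0.0262). Glutamylation enzymes split into 4 higher and 2 lower of 11, beside the same shares over all tested genes. The ligase TTLL11 stood at 0.28 ± 0.08 (0.00668) and the deglutamylase AGTPBP1 at −0.26 ± 0.07 (0.00286). AGTPBP1 lost its call in 4 of 9 other settings, with −0.10 under log2 concentration (adjusted p = 0.352) and −0.13 on the authors' log2 table (0.372). TBCE lost its call in 4 settings, TTLL11 in 2 (without the set term, 0.0917, and in replicates 3 and 4 alone, 0.203), TTLL6 in 2 (each set alone, 0.0524 and 0.177), and MAP1LC3B (0.434), STMN3 (0.0878) and MATCAP1 (0.186) without the set term. TTLL6, at 0.296 ± 0.0476 CPM in the combination and 0.116 ± 0.0123 CPM in DMSO (SD, n = 4), is near the limit of detection. The 4 actin linkers other than GAS2L3 (GAS2, GAS2L1, MACF1 and DST) had log2 differences of 0.00 to 0.16 and SIRT2, a further deacetylase, of 0.05, none past the threshold.

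**Figure D5:**
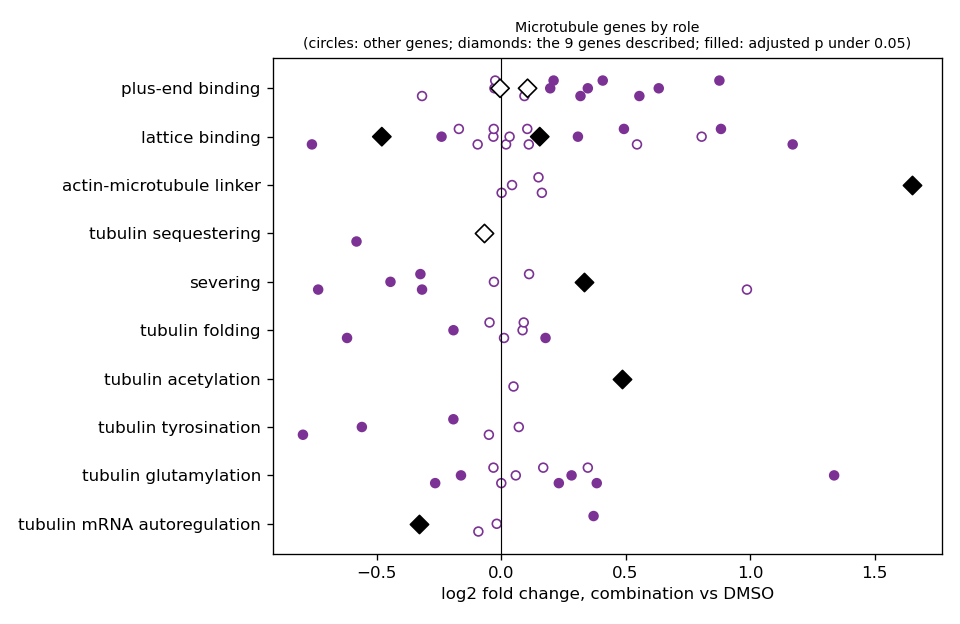
Log2 fold change in the combination against DMSO (x axis) of the 67 other microtubule genes (circles) and the 9 genes described (diamonds), in rows by role; filled symbols had an adjusted p under 0.05. Plus-end binders lie mostly right of 0 (median 0.27), severing genes mostly left (median −0.32), and GAS2L3 (1.65) is the rightmost point.

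Profiles most like those of the other members called in the combination were found by r over the 16 libraries with set means removed. They were FGFR1OP (0.963), HECTD4 (0.956) and DNHD1 (0.955) for HDAC6, and PPP2R5A (0.953), TRAF3IP2 (0.944) and GRSF1 (0.942) for KATNA1. For MAP4 they were AP3D1 (0.953), HK1 (0.937) and PRPF6 (0.935), for MAP1B SRP72 (0.929), XPO5 (0.921) and XRCC5 (0.911), and for TTC5 GTPBP1 (0.985), NUP62 (0.969) and FBXO21 (0.965). These values describe libraries that share treatments and depth.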

How the data were processed

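The authors deposited RNA-seq counts per gene; the submitters' processing notes name STAR 2.7.5b, hg38, and featureCounts from Subread 2.0.1. Deposited log2 values, adjusted for RNA concentration, equalled log2 CPM (TMM, prior count 2) minus a line in the labelled concentration to within 1e-10. They served as an alternative. Exon lengths came from the count table.

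Members and lists were chosen with earlier results of these data known. Counts were filtered with filterByExpr (minimum count 10, minimum total 15), scaled by TMM and tested with the robust quasi-likelihood test of edgeR 4.0.16 (R 4.3.3). All 16 libraries entered 1 fit with group and concentration set, and adjustment was by Benjamini-Hochberg over 17991 genes. SE is the absolute log2 fold change over the square root of F, and the procedure was tested on simulated data. The common biological coefficient of variation was 7.41%. The 171 genes with no symbol held at most 0.0462% of counts. Alternatives used DESeq2 1.42.0, limma 3.58.1, other factors, filters and covariates, and each library left out. All 9 members found are named, up to 3 called genes per role by smallest p in the combination against DMSO, and the 3 most similar profiles per called member (mean log2 CPM of at least 3); 1 gene that this rule picks is not reported here. Positions are from GENCODE v29 and promoters from RefSeq.

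Replicate numbers, given in the labels, paired the libraries: deviations from group means correlated by 0.367 to 0.704 (median 0.59) over 24 same-number pairs. What part of this comes from the set was not tested. Within groups χ² per gene between libraries was 6.62 to 336, so none was counted as a copy.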

Additional observations from a re-analysis of the deposited data

Results flagged for a closer look

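Of 36 combinations of gene and group checked for 1 library apart from the other 3, 1 stood out, and chance alone gives about 1 in 20. It was GAS2L3 with afatinib, where replicate 1 had 38.4 CPM beside 48.7, 47.4 and 49.2 CPM in replicates 2 to 4. Its gap to the nearest library was 0.841 of the range of the group, above the critical value of 0.829. The afatinib call of GAS2L3 held in each of the 16 leave-outs.

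The interaction of KIF18B, the combination change minus both single-drug changes, was 0.39 ± 0.09 (edgeR, adjusted p = 0.048), just under the threshold. KIF18B was the 1 gene called among 67 (1.49%), beside 0.884% of all tested genes. In each of the 10 leave-outs that ended the call the adjusted p lay between 0.0644 and 0.14, and the library left out was combination replicate 1, 2 or 3, afatinib replicate 1, 2 or 3, paclitaxel replicate 1, 3 or 4, or DMSO replicate 4. It was also lost in 5 of 9 other settings: without the set term (adjusted p = 0.999969), with log2 concentration (0.0975), in replicates 1 and 2 alone (0.449), in replicates 3 and 4 alone (0.416) and on the authors' log2 table (0.205).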

How the results depend on the processing

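Without the concentration term members called numbered 3 in the combination against DMSO and 1 in each of afatinib and paclitaxel against DMSO and the combination against paclitaxel and against afatinib. In replicates 1 and 2 alone 1 was called with afatinib. In replicates 3 and 4 alone 3 were called in the combination and 1 in each of paclitaxel against DMSO and the combination against either drug. On the authors' log2 values 0 members were called for afatinib, 0 for paclitaxel and 1 for the combination against afatinib; with no filter there was 1 in the interaction. Leaving out each library gave 5 to 7 for the combination, 1 to 3 for afatinib, 4 to 6 for paclitaxel, 3 to 5 against paclitaxel, 3 to 6 against afatinib and 0 to 1 in the interaction. Fits within 1 set use 8 libraries; otherwise the cause was not tested.

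The fit with the replicate number as a block in place of the set gave calls for HDAC6 with paclitaxel (0.15, adjusted p = 0.0492), MAP4 against afatinib (0.14, 0.0348) and STMN1 against paclitaxel (0.16, 0.0199), ended that of MAP1B with paclitaxel (−0.31, 0.0762) and changed no other member's call.

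Signs that reversed belonged to differences not called either way, apart from TBCB. With log2 concentration in place of the set they were, for afatinib, STMN1 0.032, MAP4 −0.0189, MAPRE1 0.0331 and TTC5 0.0258; for paclitaxel, MAP4 −0.00295; for the combination, STMN1 0.0898, MAPRE3 0.041 and TBCB 0.0707; against afatinib, STMN1 0.0578; for the interaction, TTC5 −0.00143 and KATNA1 −0.0126. On the authors' log2 values they were, for afatinib, STMN1 0.0197, MAP4 −0.0152 and TTC5 0.0352; for paclitaxel, MAP4 −0.0281 and HDAC6 −0.0367; for the combination, STMN1 0.0898, MAPRE3 0.0832 and TBCB 0.0262; against paclitaxel, TTC5 −0.00133; against afatinib, STMN1 0.0700; for the interaction, TTC5 −0.0365. In replicates 1 and 2 alone they were TTC5 with afatinib 0.00971, MAPRE3 in the combination 0.000869, and for the interaction MAP1B −0.10 and KATNA1 −0.0545. In replicates 3 and 4 alone they were MAP1B 0.000269 and TTC5 −0.0578 against paclitaxel, STMN1 0.00332 and MAP1B 0.20 against afatinib, and HDAC6 −0.0243 for the interaction. With no filter MAPRE1 with paclitaxel was −0.00132. Leave-outs gave MAP4 with afatinib −0.00603 to 0.0379, MAPRE3 in the combination −0.0344 to 0.043, TTC5 against paclitaxel −0.0302 to 0.0652, STMN1 against afatinib −0.0682 to 0.0184 and the KATNA1 interaction −0.0303 to 0.0596.

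Counts over all tested genes without the set term were 2310 for the combination (6830 with it), 380 for afatinib (3432) and 625 for paclitaxel (3694). The interaction had 159 calls, beside 367 with DESeq2, 479 unfiltered, 503 with the block, 26 with log2 concentration and 0 without the set term. Other microtubule genes called in the combination were 32, beside 15 without the set term and 16 in replicates 3 and 4 alone.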
